A study of Mus musculus with 120 samples.

Results

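Immediate early genes are genes that cells can switch on within minutes of a stimulus, without making new protein first. Their levels were measured here in skin and dorsal root ganglia (DRG) of mice with paclitaxel-induced peripheral neuropathy. The set held 10 genes, found by symbol in the raw count tables of both tissues, out of 52276 named genes: Fos, Fosb, Junb, Egr1, Egr3, Nr4a1, Ier2, Ier3, Btg2 and Dusp1. All 10 passed the filter on low counts in both tissues, where 18709 genes were tested in DRG and 18578 in skin.

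Adult male C57BL6/J mice, 6 weeks old at injection, received paclitaxel, a microtubule-stabilising chemotherapeutic agent, at 4 mg/kg by intraperitoneal injection on days 0, 2, 4 and 6, or the Cremophor, ethanol and saline vehicle alone. Tissue was collected from 4 paclitaxel and 4 vehicle mice on each of days 4, 7, 11 and 23, which the study named pain onset, maximal pain sensitivity, beginning of pain resolution and post pain. Mice collected on day 4 were taken before the injection of day 6. The study does not state whether their day 4 injection came before collection. Left lumbar DRG and plantar skin from the left hind paw gave 32 libraries each, in 8 groups per tissue. Each mouse number occurred once among the DRG libraries and once among the skin libraries, and the sources do not state that an equal number is the same animal. Mice were perfused with ice-cold buffer before dissection and were housed 4 to a cage on arrival, and no label ties a cage to a group. The study also tested the hind paws with touch filaments (von Frey), and the time from this test to tissue collection was not given.

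In textbook terms, calcium, growth factor, stretch and stress signals reach ERK and other kinases. These modify serum response factor, its ternary complex partners and CREB, which already sit on immediate early promoters. The transcripts appear within minutes and decay quickly, partly through the feedback inhibitors that belong to the same set. In neurons Fos and Egr1 are long-used markers of activity, and in skin the set responds to wounding, stretch and handling of the tissue. Cutting tissue out of an animal is itself such a stimulus, and the set is known to rise while tissue is being dissected.

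The members have different roles. Fos (chr12:85473890-85477273, plus strand of GRCm38), Fosb (chr7:19302696-19310051, minus strand) and Junb (chr8:84974484-84978718, minus strand) encode subunits of the AP-1 transcription factor. Egr1 and Egr3 (chr14:70077203-70082614, plus strand) encode zinc finger factors, and Nr4a1 (chr15:101254269-101274795, plus strand) encodes an orphan nuclear receptor. Ier2 (chr8:84661331-84662852, minus strand) encodes a nuclear protein, and Ier3 (chr17:35821684-35822923, plus strand) encodes a regulator of cell survival. Btg2 (chr1:134075170-134079120, minus strand) encodes an antiproliferative protein that also acts in mRNA deadenylation. Dusp1 (chr17:26505590-26562128, minus strand) encodes a nuclear phosphatase that switches off MAP kinases. Of the exon bases of Junb, 7.52% lay under Prdx2 on the opposite strand, against 0.332% under Ergic1 for Dusp1 and none for the other members, and the sources used here do not give the strand setting of the counting.

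Promoter windows of 300 bases, 250 before to 50 after the RefSeq transcription start (GRCm38.p6), were present for 7 members (Fos, Fosb, Junb, Nr4a1, Ier3, Btg2 and Dusp1). The core of a CREB response element (TGACG, or CGTCA when it lies on the other strand) stood in 6 of these 7 windows, all but that of Ier3, against 20.8% of all 32851 windows. The complete palindrome TGACGTCA, which contains 2 overlapping cores, stood in 2 of 7, Btg2 and Dusp1, against 1.79% of all windows. The pair of AP-1 genes and the pair with the complete palindrome are shown because Fos and Dusp1 were the closest pair in skin (below), and Nr4a1 because its window had 4 cores, with capitals marking every core. The Fos window is chr12:85473640-85473939 (plus strand), Fosb is chr7:19309996-19310295 (minus), Dusp1 is chr17:26508423-26508722 (minus), Btg2 is chr1:134079106-134079405 (minus) and Nr4a1 is chr15:101266596-101266895 (plus).
Fos: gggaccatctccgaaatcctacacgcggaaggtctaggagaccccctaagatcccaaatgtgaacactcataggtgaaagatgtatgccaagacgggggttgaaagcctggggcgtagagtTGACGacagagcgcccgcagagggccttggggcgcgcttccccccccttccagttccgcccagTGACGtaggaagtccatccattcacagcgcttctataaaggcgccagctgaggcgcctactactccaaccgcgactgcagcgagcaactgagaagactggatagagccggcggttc
Fosb: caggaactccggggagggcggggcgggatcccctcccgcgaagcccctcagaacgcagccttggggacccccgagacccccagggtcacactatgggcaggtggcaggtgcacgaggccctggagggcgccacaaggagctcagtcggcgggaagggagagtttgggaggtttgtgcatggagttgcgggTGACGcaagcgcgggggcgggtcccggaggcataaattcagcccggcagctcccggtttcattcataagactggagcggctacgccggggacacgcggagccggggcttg
Dusp1: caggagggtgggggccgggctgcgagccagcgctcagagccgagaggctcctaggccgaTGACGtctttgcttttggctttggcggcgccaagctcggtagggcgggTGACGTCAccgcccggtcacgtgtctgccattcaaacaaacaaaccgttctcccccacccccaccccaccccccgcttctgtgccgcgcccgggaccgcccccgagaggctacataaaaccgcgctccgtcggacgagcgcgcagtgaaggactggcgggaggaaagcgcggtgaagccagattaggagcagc
Btg2: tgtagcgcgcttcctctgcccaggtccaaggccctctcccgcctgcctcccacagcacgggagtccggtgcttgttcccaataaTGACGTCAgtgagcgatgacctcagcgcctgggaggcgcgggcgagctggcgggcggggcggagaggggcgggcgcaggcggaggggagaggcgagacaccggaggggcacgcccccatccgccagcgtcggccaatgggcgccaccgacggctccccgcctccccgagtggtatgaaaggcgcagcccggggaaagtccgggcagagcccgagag
Nr4a1: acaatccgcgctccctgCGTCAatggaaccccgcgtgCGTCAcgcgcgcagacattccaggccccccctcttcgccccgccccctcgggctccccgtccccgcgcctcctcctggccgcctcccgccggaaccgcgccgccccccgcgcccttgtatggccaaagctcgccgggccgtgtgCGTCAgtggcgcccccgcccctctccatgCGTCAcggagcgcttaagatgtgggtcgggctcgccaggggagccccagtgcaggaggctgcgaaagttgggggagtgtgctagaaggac
The Fos cores began 129 and 66 bases before the start, the 1 of Fosb 60 bases before it, and the palindrome 143 bases before it in Dusp1 and 166 in Btg2. The EGR site GCGGGGGCG, on either strand, stood in the windows of Fosb and Nr4a1 (2 of 7, against 2.91% of all windows). A TATAAA box on the forward strand stood 33 bases before the start of Fos and at the start of Junb (2 of 7, against 8.32%). The AP-1 site TGANTCA (7.81% of all windows) and the serum response element core, the CArG box (1.63%), matched none of the 7 on either strand. Bases farther than 250 before a start were not searched, nor were the promoters of Egr1, Egr3 and Ier2, which had no window. The absence of a match therefore does not show that a member lacks such a site. The Nr4a1 and Dusp1 windows lay at RefSeq starts inside the GENCODE gene bodies, away from the gene starts given above. These are matches of letters in the reference genome, and no binding was measured.

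Skin libraries held 24114230 to 63872693 counted reads, around a median of 32147834, and DRG libraries 22146536 to 52904112, around 31547028. The lowest count behind any member's value was 30 reads, for Fosb in DRG, and in skin it was 97 reads, also for Fosb. DRG libraries carried the 10 sensory neuron markers (summed level 4900 to 9650 CPM, where CPM is the reads of a gene scaled to a fixed library total), and skin libraries carried keratinocyte markers (summed suprabasal level 47200 to 100000 CPM), while 6 of the 10 sensory neuron markers stayed under 1 CPM in every skin library. DRG libraries of mice 09 (paclitaxel, day 4) and 34 (vehicle, day 11) stood apart, with 1.8% and 1.77% of counts from mitochondrial genes against a median of 7.555%. One of the 2 sequencing runs of DRG library 09 also carried a vehicle day 23 label, while the study lists both runs as paclitaxel day 4. Spread and correlations in DRG are therefore also given without these 2 libraries where they moved.

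Both tissues expressed every member, and skin levels were mostly far higher. Levels are CPM scaled by TMM, a correction for library composition, within each tissue. Junb averaged 242.4 ± 47.9 CPM in skin and 23.5 ± 3.45 CPM in DRG (SD, n = 32 each), and Dusp1 averaged 212.7 ± 103.7 CPM in skin and 24.5 ± 4.43 CPM in DRG. The ratio of the means, skin over DRG, was 18.3 for Fosb, 13.6 for Ier2, 13.5 for Egr3, 10.3 for Junb, 8.69 for Dusp1, 8.22 for Btg2, 8.0 for Fos, 3.65 for Egr1 and 3.09 for Ier3. For Junb, Egr3, Ier2, Ier3, Btg2 and Dusp1 the lowest skin library lay above the highest DRG library. Nr4a1 was the exception, at 42.7 ± 30.5 CPM in skin and 56.98 ± 12.2 CPM in DRG, and it was higher in skin for 7 of 32 mouse numbers. Skin and DRG RNA were extracted with different reagents and each table was normalised by itself, so tissue and preparation cannot be told apart.

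Per kilobase of exon the order of the members differed between the tissues. In skin Junb led with 105.3 ± 20.8 CPM per kb (SD, n = 32), followed by Ier2 at 75.8, Dusp1 at 64.3, Ier3 at 47.1, Btg2 at 30.3, Egr3 at 30.2, Egr1 at 28.9, Fos at 24.1, Nr4a1 at 12.2 and Fosb at 6.56 ± 6.19. Junb and Ier2 differed by more than the larger of their SDs, as did Ier3 and Btg2, and no other neighbours in that order did. In DRG Nr4a1 led with 16.2 ± 3.48 CPM per kb, followed by Ier3 at 15.3, Junb at 10.2, Egr1 at 7.90, Dusp1 at 7.39, Ier2 at 5.59, Btg2 at 3.69, Fos at 3.01, Egr3 at 2.24 and Fosb at 0.359 ± 0.129. Here Nr4a1 did not stand clear of Ier3, Egr1 of Dusp1, Btg2 of Fos or Fos of Egr3.

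The members differed most in how much they varied between mice of the same group. In skin, Fos spanned 7.48 CPM (mouse 35, vehicle day 11) to 178.6 CPM (mouse 44, paclitaxel day 11), a ratio of 23.9 with a median of 44.3 CPM. Fosb spanned 2.89 to 191.8 CPM with a median of 31.3 CPM, a ratio of 66.3, and both ends came from paclitaxel day 7, where mice 25 and 26 gave the extremes. Egr1 ran between 39.1 and 543.3 CPM (median 112.2), Nr4a1 between 10.3 and 161.9 CPM (median 33.4) and Dusp1 between 64.4 and 455.7 CPM (median 189.6). For Fosb the mice of a single group thus covered the whole range of the experiment, and for Fos the paclitaxel day 11 group alone ran between 9.35 and 178.6 CPM. The other members were far steadier, since Egr3, Junb, Ier2, Btg2 and Ier3 spanned ratios of 3.27, 3.07, 2.87, 2.27 and 1.83 over the 32 skin libraries.

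The within-group SD on the log2(CPM + 1) scale gave the same division. It was 1.44 for Fos and 1.44 for Fosb in skin, 0.88 for Nr4a1, 0.77 for Dusp1 and 0.72 for Egr1, against 0.36 for Egr3, 0.26 for Ier2, 0.24 for Junb, 0.18 for Btg2 and 0.16 for Ier3, and against a median of 0.22 over all genes tested in skin. In DRG the leading gene was another one. Egr3 had an SD of 0.69, followed by Egr1 at 0.46, Fos at 0.39, Nr4a1 at 0.39, Fosb at 0.38, Ier2 at 0.32, Btg2 at 0.29, Dusp1 at 0.28, Junb at 0.21 and Ier3 at 0.16, with a median of 0.21 over all genes tested. Without mice 09 and 34 the SD was 0.50 for Egr3, 0.36 for Egr1, 0.26 for Nr4a1 and 0.15 for Ier3, with a median of 0.19, so Egr3 still led and Fos (0.39) came second. Ier3 was thus the steadiest member in both tissues, and Fos and Fosb varied much more in skin than in DRG.

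**Figure D1:**
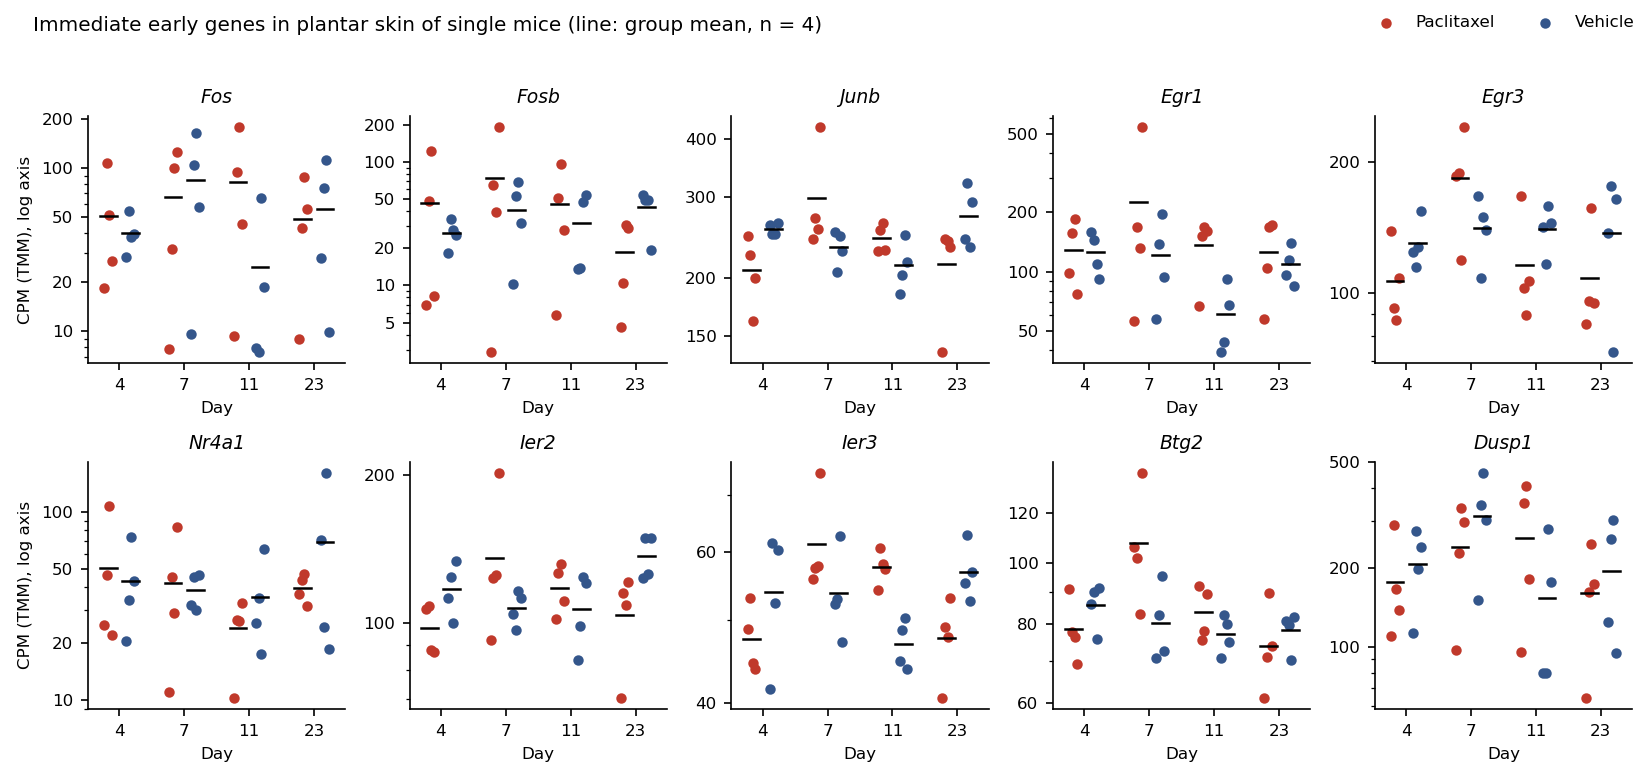
Level of each immediate early gene in the 32 skin libraries (CPM, log axis), by day, with paclitaxel mice left of vehicle mice, 1 point per mouse and a bar at the group mean. Fos and Fosb scatter over ratios of 23.9 and 66.3 with the treatments interleaved, while Ier3, Btg2 and Junb stay in a narrow band.

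Whether paclitaxel changed these genes in skin was tested with edgeR's quasi-likelihood test, which compares the groups relative to the spread between mice and adjusts p-values by the Benjamini-Hochberg method over all genes of the tissue. A gene was called at an adjusted p under 0.05. None of the 10 members was called on any day. On day 4, 0 of 10 were called (0.0108% of all genes tested were called) and 0 had an unadjusted p under 0.05. On day 7, 0 of 10 were called (0.00538% of all genes) and 2 had an unadjusted p under 0.05. Day 11 gave 0 of 10 (0.285% of all genes) with 2 unadjusted, and day 23 gave 0 of 10 (4.71% of all genes) with 3 unadjusted. For the average of the 4 daily differences, 0 of 10 were called (5.37% of all genes) and 1 had an unadjusted p under 0.05. DESeq2 and limma voom also called 0 members in each of these comparisons. The share of all genes with an unadjusted p under 0.05 is not given here. The unadjusted counts, here and below, are therefore no result about the members.

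The members nonetheless leaned different ways on different days, without any passing the test. The median log2 fold change of the 10, paclitaxel over vehicle, was -0.15 on day 4 (4 of 10 positive), 0.35 on day 7 (8 positive), 0.25 on day 11 (8 positive) and -0.31 on day 23 (1 positive), where the median over all genes tested lay between -0.01 and 0.02 on the 4 days. Averaged over the days it was -0.01 with 5 of 10 positive. The members share libraries, so these counts are not independent of each other. Tissue make-up also differed between the treatments. On day 23 the summed level of 14 skeletal muscle markers was 17400 to 33200 CPM in paclitaxel skin. Vehicle mice had 3930, 47.1, 1190 and 49900 CPM. On day 4 it was 13500 to 26200 CPM in paclitaxel mice and 990, 4160, 799 and 23500 CPM in vehicle mice. Ranges for all days are given below, and the part of muscle in these leanings was not tested. The test of a difference in the paclitaxel effect between days called 0 of 10 members (0% of all genes), with 4 at an unadjusted p under 0.05 and a lowest adjusted p of 0.279 in edgeR.

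Btg2 came nearest to a call on day 7. It had 106.0, 138.8, 101.7 and 83.0 CPM in the paclitaxel mice and 70.9, 72.5, 82.8 and 95.5 CPM in the vehicle mice. The groups overlapped through paclitaxel mouse 28, which lay below vehicle mouse 20. The log2 fold change was 0.42 (SE 0.13, 95% interval 0.16 to 0.67), with an edgeR adjusted p of 0.467. Junb, also on day 7, had 243.4, 424.5, 269.7 and 255.4 CPM in paclitaxel mice and 252.1, 228.6, 205.7 and 247.1 CPM in vehicle mice. Its log2 fold change of 0.35 (SE 0.16, edgeR adjusted p = 0.813) was carried largely by mouse 26, without which the log2 fold change was 0.14 and the paclitaxel mean 256.2 CPM in place of 298.2 CPM. Without that mouse the Btg2 value was 0.27.

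On day 11 the largest difference was in Fos and the lowest p in Ier3. Egr1 had 67.3, 161.5, 151.6 and 169.2 CPM in the paclitaxel mice and 39.1, 67.4, 44.1 and 92.2 CPM in the vehicle mice. Only paclitaxel mouse 41 fell inside the vehicle range, and the log2 fold change was 1.18 (SE 0.51, 95% interval 0.13 to 2.23, edgeR adjusted p = 0.471). Ier3 had 54.3, 57.3, 60.7 and 58.1 CPM in paclitaxel mice and 44.8, 43.8, 48.7 and 50.3 CPM in vehicle mice. These groups of 4 did not overlap, and the log2 fold change was 0.30 (SE 0.11, edgeR adjusted p = 0.363). Fos had 9.35, 45.6, 94.9 and 178.6 CPM in paclitaxel mice and 7.93, 18.7, 7.48 and 65.6 CPM in vehicle mice. Its log2 fold change of 1.73 had a 95% interval of -0.29 to 3.74 (edgeR adjusted p = 0.659), and ran between 1.03 without paclitaxel mouse 44 and 2.86 without vehicle mouse 36.

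Day 23 leaned the other way. Ier2 had 70.4, 121.1, 114.9 and 108.9 CPM in the paclitaxel mice and 123.2, 148.5, 148.9 and 125.7 CPM in the vehicle mice. The groups did not overlap, with a log2 fold change of -0.40 (SE 0.17, 95% interval -0.75 to -0.04, edgeR adjusted p = 0.176). Ier3 had 40.6, 53.1, 49.03 and 47.8 CPM in paclitaxel mice and 55.3, 56.9, 62.9 and 52.6 CPM in vehicle mice, and here mouse 58 reached into the vehicle range (log2 fold change -0.26, SE 0.11, edgeR adjusted p = 0.170). Junb had 138.4, 233.9, 243.3 and 240.4 CPM in paclitaxel mice and 242.9, 291.6, 320.7 and 233.1 CPM in vehicle mice, a log2 fold change of -0.35 (SE 0.16, edgeR adjusted p = 0.209). Mouse 57 was the lowest skin library of all 32 for Junb, Ier2, Ier3, Btg2 and Dusp1. Without it the day 23 log2 fold change was -0.27 for Ier2 and -0.21 for Junb.

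Groups that did not overlap were few. In skin, 1 member did not overlap on day 4 (Junb, lower with paclitaxel; 3.82% of all genes did not overlap), 0 on day 7 (5.73% of all genes), 1 on day 11 (Ier3, higher; 5.25%) and 1 on day 23 (Ier2, lower; 11.7%). Beside those shares, 0 or 1 of 10 members a day is no result about the members. The Junb values behind the day 4 count were 246.1, 200.5, 224.3 and 161.4 CPM in paclitaxel mice and 260.9, 263.6, 249.1 and 248.9 CPM in vehicle mice. Paclitaxel mouse 09 lay just under the vehicle mice, and the log2 fold change was -0.30 (SE 0.16, edgeR adjusted p = 0.651).

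Averaged over the 4 days, Egr1 was the only member whose 95% interval in skin left out 0. Its average log2 fold change was 0.58 (SE 0.25, 95% interval 0.06 to 1.10), a fold of 1.49, with an unadjusted p of 0.0306 and an edgeR adjusted p of 0.202, and it was 0.34 without mouse 26. Egr1 lies at chr18:34859823-34864984 (plus strand). Its daily log2 fold changes were 0.04, 0.89, 1.18 and 0.21 on days 4, 7, 11 and 23. On day 7 mouse 26 held 543.3 CPM while the other paclitaxel mice held 56.4, 168.9 and 132.6 CPM and the vehicle mice 57.6, 93.4, 138.2 and 196.6 CPM. For the steady members the average was narrowly bounded: the 95% interval of the fold, paclitaxel over vehicle, was 0.932 to 1.09 for Ier3, 0.968 to 1.16 for Btg2, 0.877 to 1.10 for Junb and 0.857 to 1.10 for Ier2. For the variable members it was wide, at 0.661 to 2.58 for Fos and 0.603 to 2.33 for Fosb.

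**Figure D2:**
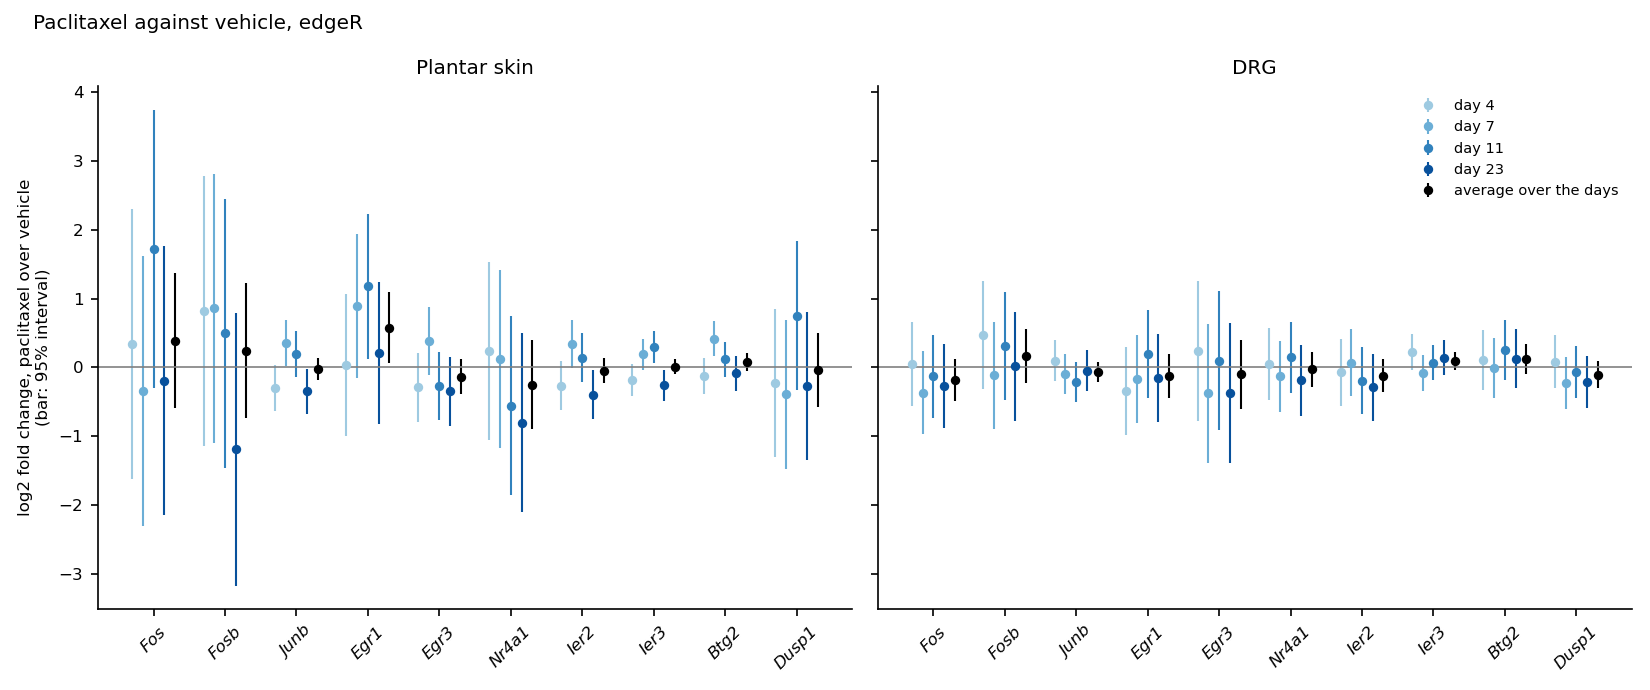
Log2 fold change of each immediate early gene, paclitaxel over vehicle, on each day and averaged over the days, in skin and DRG, with 95% intervals from edgeR. Fos and Fosb have intervals several log2 units wide in skin, Ier3 and Btg2 narrow ones, and none was called.

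Within the paclitaxel mice, 3 members were called across the days in skin, where many other genes were called too. The members share libraries, so this count is not read as a result about the set. The edgeR test over the 4 days called Btg2 (adjusted p = 0.0146), Ier3 (adjusted p = 0.0293) and Egr3 (adjusted p = 0.0449), 3 of 10 members where 16.0% of all genes tested were called, with 5 of 10 at an unadjusted p under 0.05. Btg2 averaged 78.6 ± 9.12, 107.3 ± 23.2, 83.8 ± 8.09 and 74.0 ± 11.8 CPM on days 4, 7, 11 and 23 (SD, n = 4 each). Ier3 averaged 47.6 ± 4.31, 61.4 ± 8.65, 57.6 ± 2.66 and 47.6 ± 5.22 CPM on those days, and Egr3 averaged 106.7 ± 23.3, 183.5 ± 49.7, 116.4 ± 34.5 and 108.3 ± 32.6 CPM. All 3 had their highest mean on day 7, and none of the calls stood without mouse 26 of that group (below). In the vehicle mice 0 of 10 members were called across the days (0.996% of all genes) and 0 had an unadjusted p under 0.05. Vehicle means on days 4, 7, 11 and 23 were 85.7, 80.4, 77.2 and 78.3 CPM for Btg2, 53.96, 53.72, 46.91 and 56.95 CPM for Ier3 (unadjusted p = 0.105, edgeR adjusted p = 0.407), and 130.5, 141.1, 140.6 and 137.9 CPM for Egr3. The difference of the paclitaxel effect between days was itself not called for any member, as given above.

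These 3 calls rested on few libraries and moved with other signals. Without mouse 26 of the paclitaxel day 7 group, 0 of 10 members were called, with edgeR adjusted p of 0.0737 for Btg2, 0.0542 for Ier3 and 0.183 for Egr3. Leaving out any other single mouse kept Btg2 and Ier3 called, while Egr3 was called in 15 of the 32 such fits. Skeletal muscle transcripts also differed between the days in the paclitaxel mice. The summed level of 14 muscle markers was 13500 to 26200 CPM on day 4, 528 to 3240 CPM on day 7, 68.0 to 3420 CPM on day 11 and 17400 to 33200 CPM on day 23. In vehicle mice it was 799 to 23500, 319 to 10000, 163 to 5680 and 47.1 to 49900 CPM on those days. With the muscle level as a covariate 0 of 10 members were called, at adjusted p of 0.259 for Btg2, 0.518 for Ier3 and 0.324 for Egr3. With that covariate 0 of all genes tested were called too. Muscle was not the only signal that moved. Across the days in paclitaxel skin the same test called 6 of 6 fibroblast, 6 of 6 Schwann cell, 6 of 8 macrophage, 5 of 6 suprabasal keratinocyte, 4 of 6 basal keratinocyte and 4 of 14 skeletal muscle markers. Their part in the 3 calls was not tested beyond the muscle covariate. In bulk tissue, fewer cells of a type and less RNA per cell cannot be told apart.

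In DRG no member was called in any comparison. On day 4, 0 of 10 were called (0% of all genes tested), on day 7, 0 of 10 (0.0107% of all genes), on day 11, 0 of 10 (0.0107%) and on day 23, 0 of 10 (0.0214%). For the average over the days 0 of 10 were called (0.139% of all genes), for the difference between days 0 of 10 (0%), across the days in paclitaxel mice 0 of 10 (0%) and across the days in vehicle mice 0 of 10 (0%). In every one of these DRG comparisons 0 members had an unadjusted p under 0.05 in edgeR, and DESeq2 and limma voom called 0 for paclitaxel against vehicle. Nor did the groups of 4 separate: 0 members did not overlap on day 4 (3.15% of all genes), 0 on day 7 (4.45%), 0 on day 11 (4.05%) and 0 on day 23 (5.04%). The median log2 fold change of the 10 members was 0.09, -0.12, 0.08 and -0.17 on days 4, 7, 11 and 23, with 8, 1, 6 and 3 of 10 positive, and -0.08 averaged over the days, where the median over all genes tested lay between -0.01 and 0.01.

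The DRG intervals were narrow enough to bound the paclitaxel effect averaged over the days. Daily intervals were wider, with a day 4 fold of 0.584 to 2.39 for Egr3 and 0.806 to 2.39 for Fosb. Averaged over the days, the 95% interval of the fold was 0.973 to 1.16 for Ier3, 0.862 to 1.06 for Junb, 0.817 to 1.06 for Dusp1, 0.935 to 1.26 for Btg2, 0.820 to 1.17 for Nr4a1, 0.777 to 1.09 for Ier2, 0.737 to 1.15 for Egr1 and 0.716 to 1.09 for Fos. It was widest for Fosb, at 0.858 to 1.48, and Egr3, at 0.656 to 1.32. Egr3 in the paclitaxel mice of day 4 had 1.26, 8.42, 16.1 and 16.3 CPM, against 9.07, 8.32, 8.34 and 9.78 CPM in the vehicle mice. The 4 vehicle mice lay close together and the paclitaxel mice lay on both sides of them. The lowest of these was mouse 09, whose library also had the lowest Egr1, Nr4a1 and Ier2 and the highest Ier3 of all 32 DRG libraries. The day 4 log2 fold change of Egr3 was 0.24 (SE 0.49) with it and 0.62 without it. The highest Fos, Junb, Egr1 and Ier2 levels in DRG came from a vehicle mouse, number 33 on day 11, with 16.4 CPM of Fos where the other vehicle mice of that day had 5.84, 4.09 and 9.09 CPM and the paclitaxel mice 8.35, 6.90, 6.70 and 10.3 CPM.

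**Figure D3:**
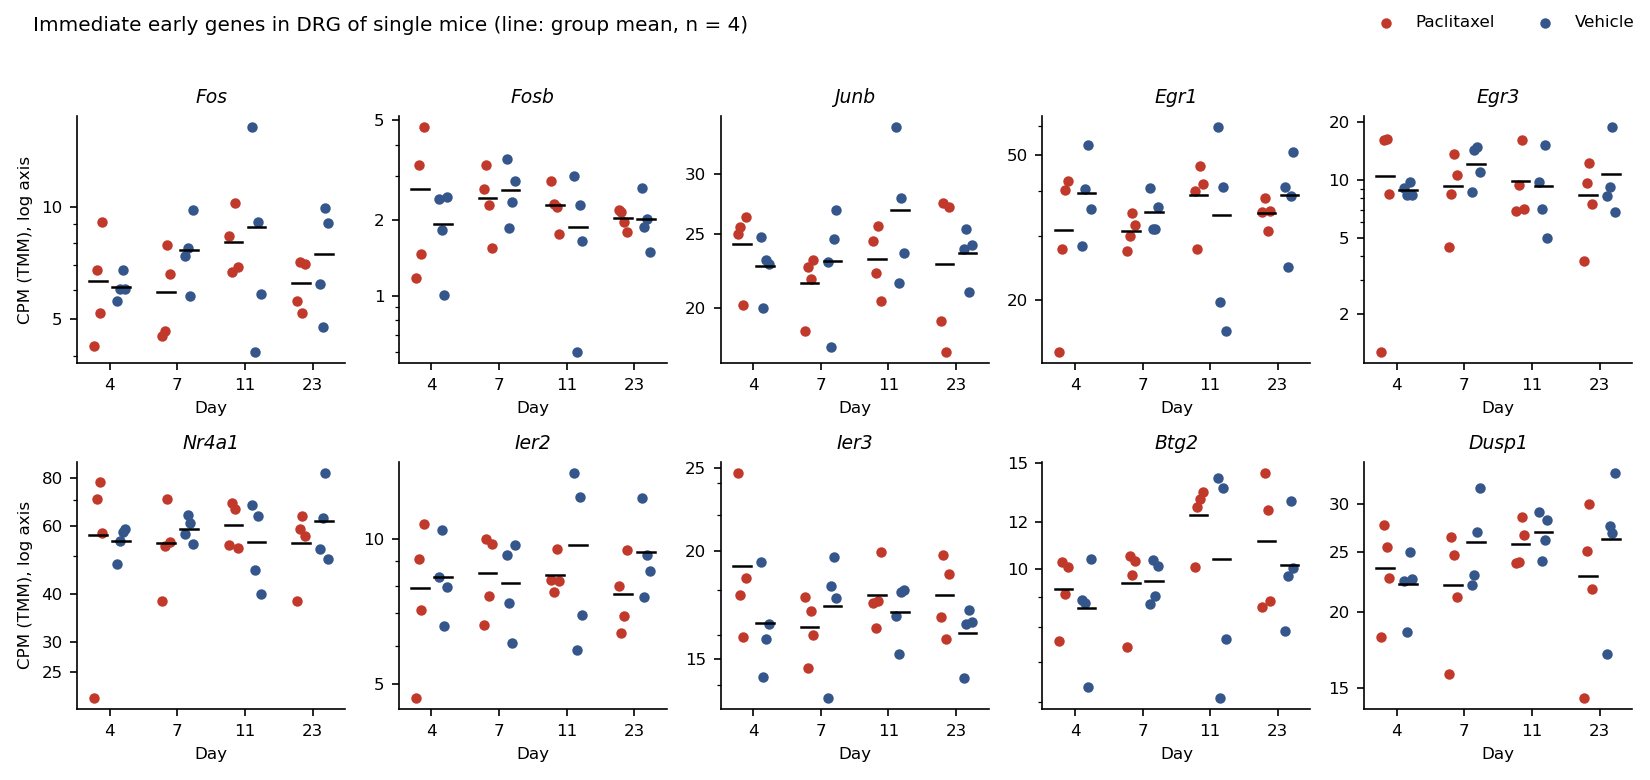
Level of each immediate early gene in the 32 DRG libraries (CPM, log axis), by day, with paclitaxel mice left of vehicle mice, 1 point per mouse and a bar at the group mean. The groups overlap for all 10 genes on all 4 days, and mouse 09 of paclitaxel day 4 is lowest for Egr3 at 1.26 CPM.

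The paclitaxel effect was also compared between the tissues, as the skin log2 fold change minus the DRG log2 fold change averaged over the days, in 1 edgeR fit of all 64 libraries. It called 0 of 10 members (1.17% of 21116 genes), with 1 at an unadjusted p under 0.05. That was Egr1, with a difference of 0.70 (SE 0.30, unadjusted p = 0.0227, adjusted p = 0.310), composed of an average log2 fold change of 0.58 in skin and -0.12 in DRG. For the other 9 members the difference lay between -0.23 (Nr4a1) and 0.56 (Fos).

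Genes outside the set that belong to the same response were examined as lists: other AP-1, ATF and MAF genes, other EGR, NR4A, KLF and MYC genes, neuronal activity genes, feedback and growth regulators, upstream activators and heat shock genes. In DRG none of the genes on these lists was called for paclitaxel against vehicle or across the days. In skin none was called on days 4, 7 or 11. On day 23, 1 of 7 other AP-1, ATF and MAF genes fell, 1 of 9 tested neuronal activity genes fell and 2 of 16 feedback and growth regulators fell. Of 16 upstream activators 1 rose and 1 fell. Together 6 of 69 tested genes of the lists were called (8.7%), where 4.71% of all genes were called. So small a count beside that share is not read as a result about the lists. None of 10 other EGR, NR4A, KLF and MYC genes and none of 11 heat shock genes was called on that day.

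Jund, the AP-1 subunit that is expressed without a stimulus in most cells, was lower in paclitaxel skin on day 23 at 299.9 ± 41.6 CPM, against 503.9 ± 28.9 CPM in vehicle skin (SD, n = 4 each), and the ranges did not overlap (246.4 to 340.6 and 473.8 to 542.9 CPM). Its log2 fold change was -0.75 (SE 0.17, edgeR adjusted p = 0.0123). Elk4, a ternary complex factor that binds with serum response factor, averaged 60.6 ± 3.77 CPM in paclitaxel and 86.0 ± 5.77 CPM in vehicle skin (log2 fold change -0.50, SE 0.11, edgeR adjusted p = 0.0091). Elk3, another ternary complex factor, which mostly acts as a repressor, was higher at 23.6 ± 3.62 CPM in paclitaxel skin, against 13.4 ± 2.49 CPM in vehicle skin (log2 fold change 0.82, SE 0.20, edgeR adjusted p = 0.0161). So on day 23 the calls of Elk4 and Elk3 went in opposite directions, and the Elk3 call did not stand in every setting (below).

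Nfkbia, which encodes the inhibitor that holds NF-kappa-B in the cytoplasm, had 71.9 ± 6.80 CPM in paclitaxel skin and 107.3 ± 17.3 CPM in vehicle skin on day 23 (log2 fold change -0.58, SE 0.14, edgeR adjusted p = 0.0144). Sik1, a CREB-induced kinase, and Dusp5, a nuclear ERK phosphatase, were also lower, by log2 fold changes of -0.51 (adjusted p = 0.0323) and -0.60 (adjusted p = 0.0374) in edgeR. The Jund and Elk4 calls stood without any single mouse. The Elk3 call was lost without mouse 51 (vehicle) or 57 (paclitaxel), Nfkbia without mouse 51, Sik1 without 49, 51, 57, 58 or 59, and Dusp5 without 49, 50, 51, 57 or 59. With the muscle level as a covariate Jund, Elk4 and Nfkbia remained called and Elk3, Sik1 and Dusp5 were not. Only Jund and Elk4 stayed called under all 7 other settings. On the same day 3 of 6 fibroblast markers and 2 of 8 macrophage markers were higher and 2 of 6 basal keratinocyte markers lower in paclitaxel skin, and the part of such shifts in these differences was not tested.

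Averaged over the days, 6 of the 69 tested genes of these lists were called (8.7%), where 5.37% of all genes were. Jund (log2 fold change -0.43, SE 0.09, edgeR adjusted p = 0.00256), Elk4 (-0.27, adjusted p = 0.0033), Nfkbia (-0.31, adjusted p = 0.00597), Gadd45g (-0.45, adjusted p = 0.0125) and Per1 (-0.51, adjusted p = 0.0172) fell in paclitaxel skin. Per1, a core clock gene that CREB and glucocorticoids also induce, averaged 160.4, 166.5, 132.8 and 131.0 CPM in paclitaxel mice of days 4, 7, 11 and 23, against 187.1, 240.5, 195.2 and 215.5 CPM in vehicle mice. These 5 calls stood without any single mouse and under all 6 other settings. Jun, the AP-1 partner of Fos, was called higher (log2 fold change 0.30, SE 0.09, edgeR adjusted p = 0.0491), but in only 7 of 32 fits without 1 mouse. Jund is mostly constitutive and Per1 also follows the time of day, and the hour of tissue collection was not given in the sources used here.

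Across the days in paclitaxel skin, 13 of the 69 tested genes of these lists were called (18.8%), a share near the 16.0% of all genes: Rgs2, Klf4, Nr4a3, Rps6ka1, Hsph1, Ccn2, Dnajb1, Elk3, Arc, Rhob, Sik1, Hspa1a and Dusp5. Klf4, a keratinocyte differentiation factor, averaged 1071, 1608, 1402 and 1033 CPM on days 4, 7, 11 and 23 (edgeR adjusted p = 0.0125), the same order of days as Btg2. Rhob, a small GTPase, ran the other way with 92.7, 75.1, 54.8 and 88.4 CPM (edgeR adjusted p = 0.0074). With 1 mouse left out in turn, Ccn2 was called in 8 of 32 fits, Sik1 in 20, Arc in 21, Rgs2 in 27, Elk3 in 28, Hsph1 and Hspa1a in 31 and the other 6 in all 32. All 13 lost their call when the skeletal muscle level was a covariate. With that covariate no gene of all those tested was called, so the loss is not particular to these genes.

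Within groups, the members varied together from mouse to mouse. For each gene the deviation of each mouse from its group mean on the log2(CPM + 1) scale was taken, and Pearson's r was computed over the 32 mice for the 45 pairs of members. The points of a pair share the library, so the values are a description without a test. In skin the median r over the 45 pairs was 0.48, with 21 pairs over 0.5 and 7 below 0, while over pairs of all genes the median was -0.002 and 3.65% were over 0.5. In DRG the median was 0.41, with 12 pairs over 0.5 and 5 below 0, against a median of 0.0003 over pairs of all genes and 6.44% over 0.5. Without mice 09 and 34 the DRG median was 0.30, and without the 11 DRG libraries that held over 10 CPM of Krt10, a keratin of suprabasal keratinocytes, it was 0.41.

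The closest pairs differed between the tissues, and the blocks they formed in skin were not sharply separated. In skin the closest pair was Fos and Dusp1 (r = 0.96), which joined Fosb and Egr1 (Fosb with Egr1 0.89, Fos with Fosb 0.83, Fos with Egr1 0.82). These are among the variable genes of skin, as is Nr4a1, which had r of 0.65 to Fosb, 0.505 to Egr1, 0.45 to Fos and 0.42 to Dusp1. The steadier Junb and Ier2 formed a pair (r = 0.88). Ier2 also had r of 0.72 to Egr1, 0.68 to Ier3, 0.61 to Dusp1, 0.60 to Fosb and 0.59 to Fos. Egr3 stood apart from the Fos block, with r of -0.29 to Fos and -0.41 to Nr4a1, and nearest to Btg2 (0.61). In DRG Egr3 and Nr4a1 formed the closest pair (r = 0.94, and 0.88 without mice 09 and 34), in contrast to their negative r in skin. Fos and Egr1 had an r of 0.77 in DRG, Fosb and Ier2 0.69, while Fos and Dusp1 had 0.31. Ier3 had 5 of its 9 correlations in DRG below 0, with -0.41 to Nr4a1, but without mice 09 and 34 it had 3 of 9 below 0 and -0.01 to Nr4a1. Without the DRG libraries above 10 CPM of Krt10, a keratinocyte keratin, 8 of 9 were below 0 and the r to Nr4a1 was -0.70 over 21 libraries.

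**Figure D4:**
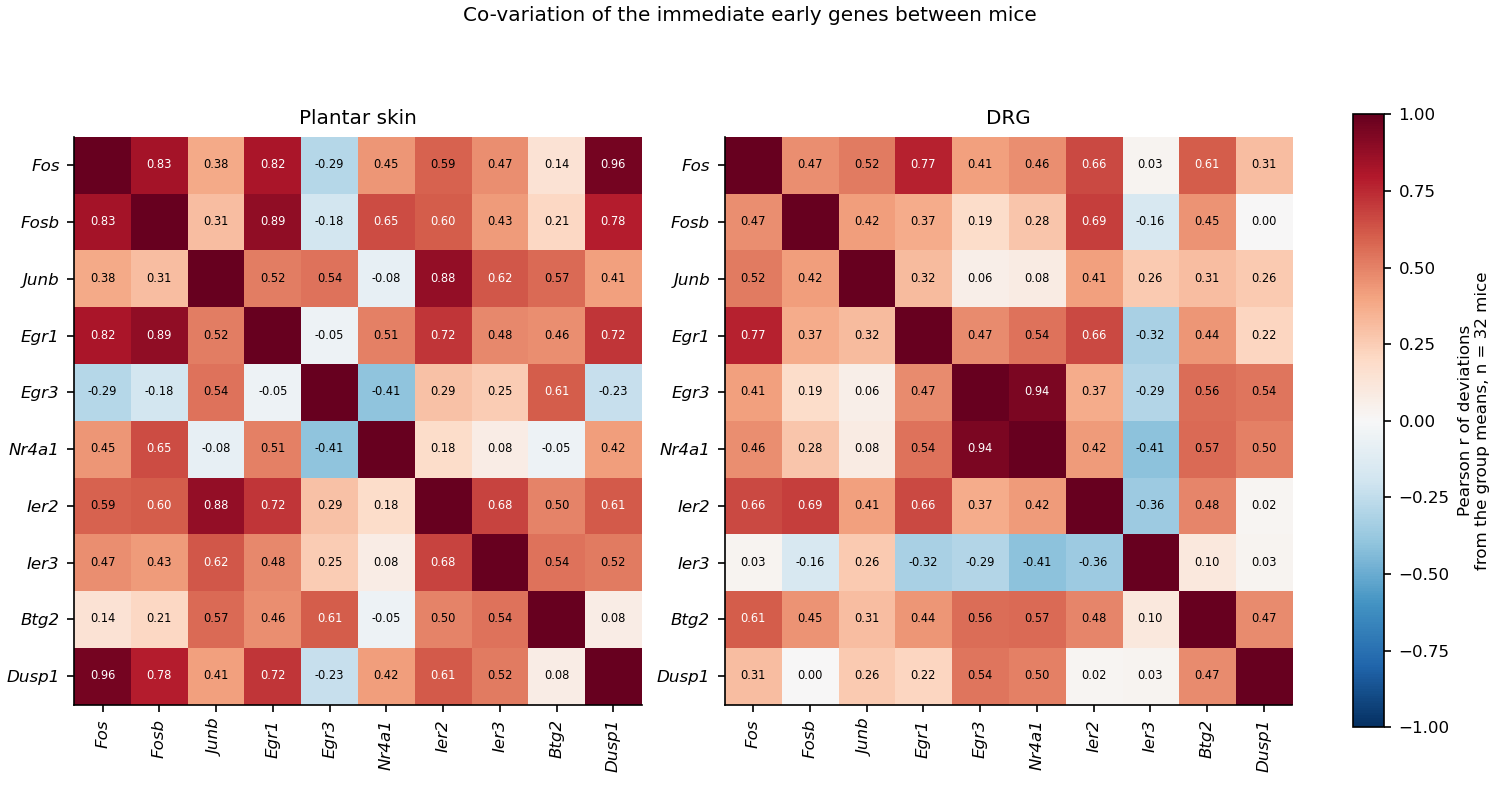
Pearson's r of within-group deviations of log2(CPM + 1) over 32 mice for every pair of immediate early genes, in skin and in DRG, on a colour scale of -1 to 1. Fos, Fosb, Egr1 and Dusp1 form a block in skin, and Egr3 with Nr4a1 has r = 0.94 in DRG and -0.41 in skin.

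Other signals in the libraries moved with the members. In DRG the mean deviation of the 10 members had r = 0.87 with the mean of 6 fibroblast markers, 0.83 with 8 macrophage markers, 0.67 with 6 Schwann cell markers and -0.68 with 10 sensory neuron markers. Without mice 09 and 34 these were 0.76, 0.69, 0.25 and -0.43. DRG library 09 had the lowest summed fibroblast (1150 CPM) and macrophage (74.9 CPM) levels and 9280 CPM of sensory neuron markers, the second highest after the 9650 CPM of library 34. In skin the mean of the members had weaker relations, 0.24 with skeletal muscle, -0.31 with macrophage and -0.42 with adipocyte markers. Some single members had stronger ones. Egr3 had r = 0.86 with 6 suprabasal keratinocyte markers and -0.48 with skeletal muscle, and Nr4a1 had 0.51 with skeletal muscle and -0.56 with basal keratinocyte markers. The highest Nr4a1 level in skin, 161.9 CPM in mouse 52 of vehicle day 23, came from the library with the highest muscle level (49900 CPM) and the lowest Egr3 (73.5 CPM) and suprabasal level (47200 CPM). The part of these cell type markers in the values was not tested.

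Outside the set, the genes most like the mean of the members differed between the tissues. In skin, over 13142 genes ranked by r across 32 mice, they included Zfp36 (0.84), Spink14 (0.83), Hbegf (0.78) and Csrnp1 (0.78). In DRG, over 13569 genes, they were Map3k3 (0.87), Col15a1 (0.86), Fcgr2b (0.86), Stab1 (0.86) and Itga5 (0.86), and without mice 09 and 34 their r was between 0.74 and 0.78. Zfp36, which encodes an mRNA-destabilising protein, and Csrnp1 were also on the lists of related genes above. Zfp36, Csrnp1 and the growth factor gene Hbegf are themselves known as immediate early genes, whereas Stab1 and Fcgr2b are known from macrophages and endothelium and Col15a1 encodes a basement membrane collagen.

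Taking equal mouse numbers in the tissues as the same mouse, which is an assumption, it was checked whether a mouse that was high in skin was also high in DRG. Over all genes the same-number correlations had a median of 0.0148, and 3 of 32 were over 0.1. The r of the within-group deviations over 32 mice was computed for the 10 members, with a two-sided permutation test of 100000 shuffles of mice within groups, and p-values were not adjusted over the 10. Dusp1 had r = 0.46 (permutation p = 0.0204) and rho = 0.38 (permutation p = 0.0536), and r was 0.35 without mice 49 and 57, the most distant from the median in DRG. Junb had r = 0.39 (permutation p = 0.0658) and rho = 0.42 (permutation p = 0.0286), and r was 0.47 without mice 19 and 60. Egr3 went the other way, with r = -0.39 (permutation p = 0.0487) and rho = -0.35 (permutation p = 0.0872), and -0.29 without mice 09 and 12. Nr4a1 had r = 0.36 (permutation p = 0.118) and rho = 0.25 (permutation p = 0.236), and r was 0.25 without mice 09 and 12.

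Of the members above, Dusp1, Junb and Egr3 passed an unadjusted 0.05 with either r or rho but not both, and Nr4a1 with neither. The remaining members had weaker relations, with permutation p of 0.33 or more. Their r was 0.13 for Fos (permutation p = 0.554), -0.22 for Fosb (0.33), -0.07 for Egr1 (0.656), 0.02 for Ier2 (0.914), -0.06 for Ier3 (0.774) and -0.04 for Btg2 (0.825). Over the 16397 genes tested in both tissues the median r was 0.0157, with a range from -0.327 at the 5th percentile to 0.358 at the 95th. Dusp1, Junb and Nr4a1 thus lay above that range and Egr3 below it. The mean of the 10 members had r = 0.32 and rho = 0.34 between the tissues, and 0.42 without the 2 mice farthest from the median in DRG. For Fos and Fosb, the widest-ranging members in skin, no relation to the DRG libraries of the same numbers was detectable. Skin mouse 26, the highest of all 32 for Fosb, Junb, Egr1, Egr3, Ier2, Ier3 and Btg2, had 6.62 CPM of Fos and 32.1 CPM of Egr1 in DRG, near the DRG medians of 6.73 and 35.4 CPM.

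**Figure D5:**
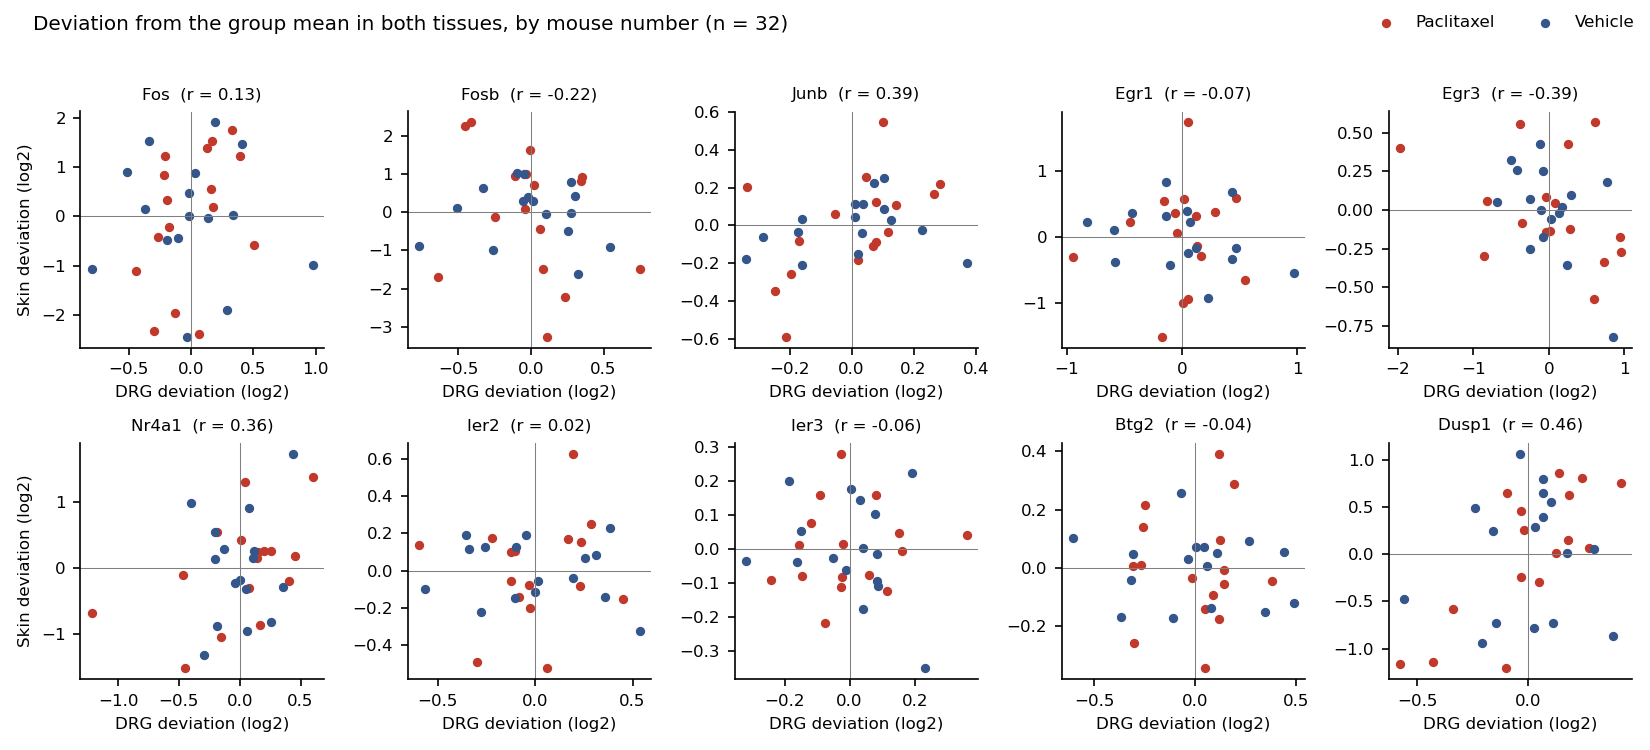
Within-group deviation of log2(CPM + 1) in skin against that in DRG for the same mouse number, for each immediate early gene, with paclitaxel and vehicle mice marked and Pearson's r over 32 mice. Dusp1 (r = 0.46) and Junb (0.39) slope upwards, Egr3 (-0.39) slopes downwards, and Fos (0.13) shows no slope.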

How the data were processed

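RNA of DRG and plantar skin was sequenced by the authors, who trimmed the reads with Trimmomatic 0.38, aligned and counted them per gene with STAR against the mouse GRCm38 assembly, and combined the runs of a mouse. The sources disagree on library preparation (ribosomal RNA depletion in the methods, oligo-dT in the labels). The deposited counts are raw reads per gene. The authors also deposited normalised signal values, counts divided by a DESeq2 size factor, used here only as an alternative scale. Each raw table had 28 empty columns that belong to no sample, and genes without a name held 0.0132% (DRG) and 0.0286% (skin) of counts and were left out.

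Counts were fitted with edgeR 4.0.16 (R 4.3.3; TMM, filterByExpr, robust quasi-likelihood) to the 32 libraries of each tissue, and p-values were adjusted by Benjamini-Hochberg across the whole table. DESeq2 1.42.0 and limma 3.58.1 were alternatives, as were size factors, no filter, the 8 libraries of a day alone, 1 surrogate variable (sva 3.50.0), a muscle covariate, leaving out each mouse, leaving out DRG libraries 09 and 34 or those with over 10 CPM of Krt10, and a mouse block. The named genes were all 10 members, every gene of the related lists past the threshold, and the 5 genes per tissue most like the members' mean (average log2 CPM of at least 1, no predicted genes), of which 1 in skin is not reported here. The members and lists were chosen with earlier results of these data known. The scripts were tested on simulated data. That the mice of a group are separate animals comes from the methods. The lowest count behind a member value was 30 reads (Fosb, DRG).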

Additional observations from a re-analysis of the deposited data

Results flagged for a closer look

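Within groups of 4, the level of 1 mouse stood far from the other 3 in 5 of 160 combinations of gene, tissue and group, where chance gives about 1 in 20, or 8. All 5 were in skin. Fosb was 19.5 CPM in mouse 50 of vehicle day 23, against 53.6, 48.9 and 49.2 CPM in the others of that group. Junb was 424.5 CPM and Ier3 74.3 CPM in mouse 26 of paclitaxel day 7, the mouse whose removal ended the calls across days. Junb was 138.4 CPM in mouse 57 of paclitaxel day 23, and Egr3 was 156.5 CPM in mouse 60 of the same group. Nothing was tested as a cause of these values.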

How the results depend on the processing

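No member was called for paclitaxel against vehicle under any alternative. Of 780 member fold changes under other settings 0 passed the threshold and 44 had the other sign, with a lowest adjusted p of 0.0748 (Egr3, skin day 23, limma voom). Of 3200 with 1 mouse left out 0 passed and 75 had the other sign, with a lowest adjusted p of 0.0841 (Ier2, skin day 23, without mouse 26). The 3 members called across days in paclitaxel skin became 0 with 1 surrogate variable, 0 with the muscle covariate and 0 to 4 with 1 mouse left out. Between the tissues, Egr3 had r = -0.24 (permutation p = 0.157) without centring on the groups and -0.30 (p = 0.217) without mice 09 and 34, and Nr4a1 had r = 0.49 (p = 0.0366) without those mice. With mouse number as a replicate block the tissue difference called 0 members (Egr1 0.53, adjusted p = 0.611) and 149 in place of 247 of all genes. Over all genes the numbers did not pair the libraries, with 3 of 32 same-number correlations over 0.1 (-0.197 to 0.183). Counts of all genes moved more. In skin, day 23 gave 159 to 3873 under other settings (875 as reported) and 342 to 2888 with 1 mouse left out, day 4 gave 0 to 9 (2), day 7 gave 1 to 47 (1), day 11 gave 9 to 182 (53), the average 662 to 2312 (998), paclitaxel across days 0 to 2996 (2967) and vehicle across days 110 to 309 (185). In DRG the average gave 2 to 88 (26), day 7 gave 0 to 10 (2), day 11 gave 0 to 44 (2) and 0 to 130 with 1 mouse left out, and day 23 gave 0 to 32 (4). With 4 mice a group, the daily intervals of Fos and Fosb in skin cannot separate small changes from none.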

Other observations

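In skin the mouse with the lowest number of its group had the lowest Fosb in 7 of 8 groups, the lowest Fos and Dusp1 in 6 of 8 and the lowest Egr1 and Ier2 in 5 of 8. For the other members it was lowest in 4 groups (Junb and Ier3), 3 groups (Nr4a1 and Btg2) and 1 group (Egr3, where it was highest in 3). In DRG it had the lowest Btg2 and Dusp1 in 6 of 8 groups and the lowest Egr3 in 5, but the highest Fosb in 5. There it was lowest in 4 groups for Nr4a1, 3 for Fos and Egr1, 2 for Ier2 and Ier3 and 1 for Fosb and Junb. The same share over all genes is not given here, so these counts are not read as a pattern of the set. The labels do not say what the numbers stand for, such as an order of dissection, and this was seen in the data and not tested. Skin libraries made from 1 sequencing run had deviations of the members' mean between -0.745 and 0.449 (n = 6), inside the span of -1.06 to 0.965 of those made from 2 runs (n = 26).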
